A study of Mus musculus with 6 samples.

Results

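Natural killer (NK) cell and cytotoxic granule genes were followed in AML blasts of a mouse model. The group holds 10 genes chosen by symbol, which are the NK receptors *Ncr1*, *Klrb1c*, *Klrd1* and *Klre1*, the cytokine receptor chain *Il2rb*, the granule genes *Gzma*, *Gzmb*, *Prf1* and *Nkg7*, and the transcription factor gene *Eomes*. The symbols were matched to 10 of the 53458 genes counted, and all 10 passed the filter on low counts that left 22170 genes for testing. Values are given in CPM, which are reads scaled to library size after TMM scaling between mice, unless a sentence names TPM, which also divide by transcript length.

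The study compared Cebpa-/p30 Tet2+/+ with Cebpa-/p30 Tet2-/- AML blasts to learn what loss of TET2, an enzyme that oxidises methylated cytosine in DNA, changes in *Cebpa*-mutant leukaemia. Blasts came from 3 Tet2+/+ mice (mice 19, 23 and 24) and 3 Tet2-/- mice (mice 5, 7 and 8) labelled C57BL/6, with 1 RNA-seq library per mouse and between 13036643 and 32855343 reads per library. In both groups a floxed *Cebpa* allele had been deleted and the other allele made only the short p30 form of C/EBPα. The Tet2-/- blasts also carried a deletion of floxed *Tet2* alleles. Both deletions were driven by Mx1-Cre, an interferon-responsive Cre, and induced with Poly(I)-Poly(C) after marrow of the donor mice had been transplanted into lethally irradiated female C57BL/6J.SJL recipients aged 10 to 12 weeks. The marrow was taken when the recipients were moribund. The study transplanted each of a few donors into several recipients, and which donor gave rise to which mouse is not stated for these libraries. Mice of a genotype may therefore share a donor, and p-values measure the spread between these mice.

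Live cells with the donor marker CD45.2 and without CD3, B220 and Ter119 were sorted. The gate was thus set against T, B and erythroid cells, but it held no antibody against an NK cell protein. *Mpo*, the myeloperoxidase of primary granules and a marker of myeloid blasts, lay between 2661 and 4526 CPM. *Tet2* itself had 73.6, 79.4 and 98.3 CPM in the Tet2+/+ mice 19, 23 and 24, and 111, 79.4 and 96.7 CPM in the Tet2-/- mice 5, 7 and 8. It was thus not lower in the Tet2-/- libraries, and since the deleted exons are not given in the sources used here, this whole-gene count does not check the labels.

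NK cells are innate lymphocytes that kill infected or transformed cells. They read their targets with activating and inhibitory surface receptors, many of them lectin-like proteins of the killer cell lectin-like receptor (Klr) family, and depend on IL-15, which signals through the β chain encoded by *Il2rb*. On contact they release granules in which perforin, the product of *Prf1*, opens the way for granzymes, serine proteases that start apoptosis in the target. T-bet and Eomes are the T-box factors of the lineage. Cytotoxic T cells use the same granules, so *Gzma*, *Gzmb*, *Prf1*, *Nkg7* and *Il2rb* are not specific to NK cells, whereas *Ncr1*, which encodes the receptor NKp46, is close to specific for NK cells and related innate lymphocytes.

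In the genome (GRCm38), *Klrb1c* (chr6:128778485-128789215, minus strand), *Klre1* (chr6:129577905-129585827, plus strand) and *Klrd1* (chr6:129591782-129598775, plus strand) belong to the NK gene complex of chromosome 6. *Klre1* and *Klrd1* are neighbours with 5954 bases between them, and *Klrb1c* lies 789 kb before *Klre1*. *Ncr1* (chr7:4337724-4345164, plus strand) and *Nkg7* (chr7:43437073-43438249, plus strand) are far apart on chromosome 7. The others are *Il2rb* (chr15:78479256-78495271, minus strand), *Gzma* (chr13:113093825-113100981, minus strand), *Gzmb* (chr14:56258838-56262260, minus strand), *Prf1* (chr10:61297833-61304680, plus strand) and *Eomes* (chr9:118478212-118486132, plus strand). All are annotated as protein-coding. Reads of each gene were summed over its annotated transcripts, so that exons of coding and of non-coding models both count.

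RefSeq promoter sequences of GRCm38.p6, 300 bases long and 250 of them before the start site, were matched for 8 of the 10 genes, all but *Il2rb* and *Klrd1*. They were searched on both strands for letters bound by factor families of NK cells, which are GGTGTGA for T-box factors, TGTGGTT for RUNX factors, and CCGGAAG or AGGAAGT for ETS factors. The 8 genes had 10 promoter entries, and a gene was counted if any of its entries held the letters, while the shares are of single promoters. The RUNX letters were present in 4 of the 8 genes (*Ncr1*, *Gzma*, *Gzmb* and *Klre1*) and in 5.27% of the 32851 promoters of the table. The *Klre1* entry with its start site at 129578286 did not hold them. The T-box letters were present in *Nkg7* alone among the 8 and in 3.98% of all promoters. The ETS letters were present in *Prf1* alone among the 8, at 2 places, and in 17.3% of all promoters. A match is a description of the letters and not of a bound site, and the motifs do not overlap in these promoters. The 250 bases before the start site are shown for *Ncr1*, the gene with the largest difference between genotypes below, and for the granzyme genes *Gzma* and *Gzmb*, which hold the same letters near their RefSeq start sites but differed less. Each is read 5′ to 3′ on the strand of its gene, and capitals mark the RUNX letters. These lie 185 bases before the start site in *Ncr1* (chr7:4337474-4337723, plus strand), 51 bases before it in *Gzma* (chr13:113100982-113101231, minus strand), where they are on the opposite strand, and 34 bases before it in *Gzmb* (chr14:56262335-56262584, minus strand). For *Gzmb* this RefSeq start site, at 56262334, lies upstream of the start of its GENCODE transcript, at 56262260, so the letters are further from the latter.
Ncr1: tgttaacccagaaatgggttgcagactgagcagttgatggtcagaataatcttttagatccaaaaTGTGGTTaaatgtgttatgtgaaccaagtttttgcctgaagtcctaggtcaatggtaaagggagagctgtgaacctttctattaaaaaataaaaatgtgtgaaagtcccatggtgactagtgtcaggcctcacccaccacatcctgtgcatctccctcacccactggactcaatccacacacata
Gzma: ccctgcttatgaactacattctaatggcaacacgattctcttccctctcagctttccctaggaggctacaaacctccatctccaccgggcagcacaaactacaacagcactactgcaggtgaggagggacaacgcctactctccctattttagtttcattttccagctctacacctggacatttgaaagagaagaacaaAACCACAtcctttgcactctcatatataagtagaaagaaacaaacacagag
Gzmb: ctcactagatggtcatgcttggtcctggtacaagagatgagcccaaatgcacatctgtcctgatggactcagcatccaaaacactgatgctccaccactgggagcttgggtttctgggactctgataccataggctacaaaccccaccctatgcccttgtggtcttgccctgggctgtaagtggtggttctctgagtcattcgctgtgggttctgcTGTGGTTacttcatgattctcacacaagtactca

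The members differed widely in level. Per length, *Nkg7*, which encodes a membrane protein of cytotoxic granules, had the highest level, with a mean of 98.0 TPM ± 27.3 (SD over the 6 mice). *Klrd1* was next with 7.07 TPM ± 3.36. *Nkg7* was first and *Klrd1* second of the 10 in every mouse, and the lowest *Nkg7* level (65.1 TPM) was above the highest *Klrd1* level (12.3 TPM). The order then ran through *Il2rb* (4.67 TPM), *Klrb1c* (3.03 TPM), *Gzmb* (2.55 TPM), *Klre1* (1.37 TPM), *Ncr1* (1.31 TPM) and *Gzma* (1.22 TPM) to *Eomes* and *Prf1* (0.303 TPM each). Apart from *Nkg7* and *Klrd1*, every pair of neighbours in this order overlapped in its range over mice. For comparison, *Mpo* lay between 850.2 and 1496 TPM. All members but *Nkg7* were thus low in these libraries, and several were counted in fewer than 20 reads in a library, which limits what a comparison can show.

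**Figure D1:**
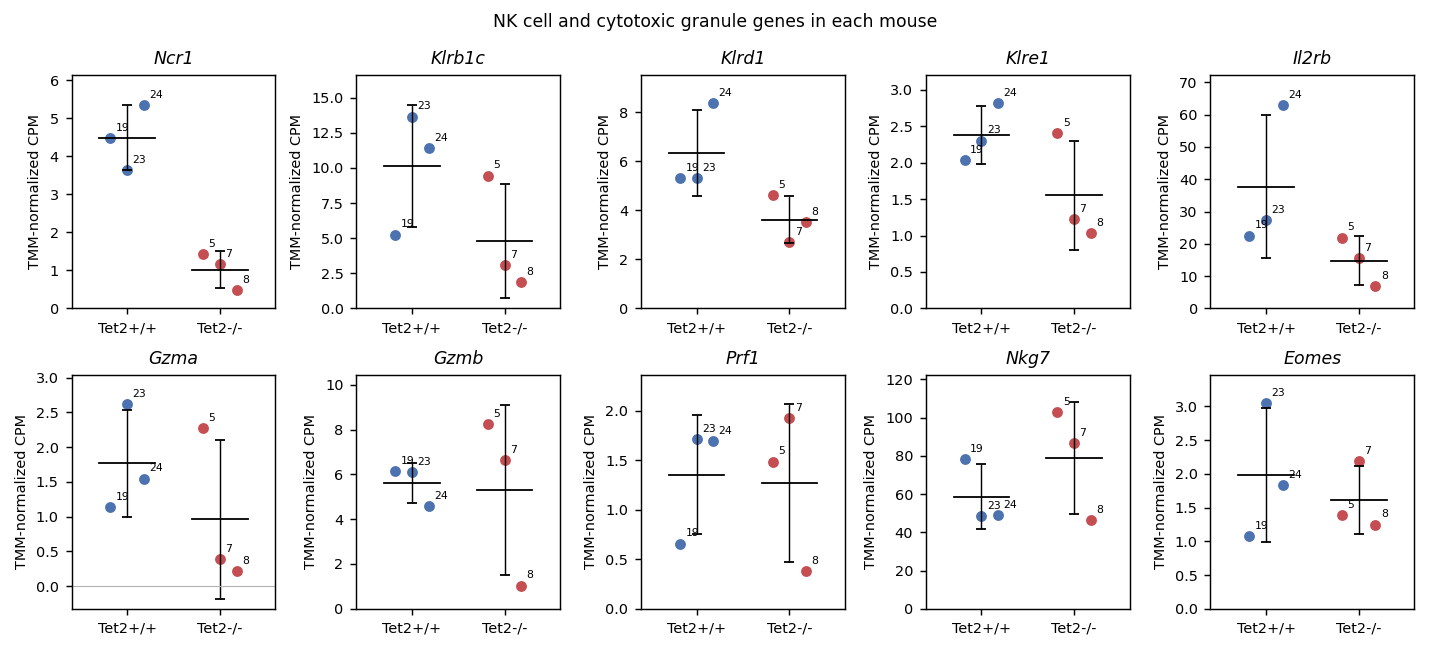
Level of each of the 10 genes in each mouse, in TMM-normalized CPM on linear axes that include 0, with Tet2+/+ mice in blue and Tet2-/- mice in red. Numbers name the mice, horizontal lines are group means and bars are 1 SD over 3 mice; *Ncr1*, *Klrd1* and *Il2rb* do not overlap between genotypes, and mouse 8 is the lowest in 8 of the 10 panels.

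The clearest difference between genotypes was in *Ncr1*, the activating receptor that marks NK cells. It had 4.48, 3.64 and 5.35 CPM in mice 19, 23 and 24, and 1.42, 1.16 and 0.488 CPM in mice 5, 7 and 8. Every Tet2-/- mouse was below every Tet2+/+ mouse, and the group means were 4.49 ± 0.855 and 1.02 ± 0.482 CPM (SD, n = 3 each). These levels rest on 75, 68 and 76 reads in the Tet2+/+ libraries and 45, 18 and 9 reads in the Tet2-/- libraries. The log2 fold change of Tet2-/- against Tet2+/+ was -2.12 ± 0.48 (SE), with an unadjusted p of 0.00314 and an adjusted p of 0.321 in the quasi-likelihood test of edgeR. DESeq2 on the same counts gave an adjusted p of 0.00264, and over all alternatives the adjusted p lay between 0.00264 and 0.783 and the log2 fold change between -2.45 and -1.79. The 6 levels gave p = 0.1 in a two-sided exact permutation test, the smallest that 3 against 3 mice allow. The difference in *Ncr1* thus kept its direction, and whether it passed the threshold depended on the tool.

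*Il2rb*, the shared β chain of the IL-2 and IL-15 receptors, was the second in size. It had 22.5, 27.4 and 63.0 CPM in mice 19, 23 and 24, and 21.9, 15.6 and 6.94 CPM in mice 5, 7 and 8. The genotypes did not overlap, but mouse 5 lay just under mouse 19, and mouse 24 was far above the other mice. Its log2 fold change was -1.34 ± 0.53, with an unadjusted p of 0.0382 and an adjusted p of 0.604 (edgeR). Without mouse 24 the log2 fold change was -0.75 and the unadjusted p no longer passed 0.05, as was also the case without mouse 7 or mouse 8.

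*Klrd1* encodes CD94, the partner of the NKG2 receptors that bind MHC class Ib. It had 5.32, 5.30 and 8.38 CPM in mice 19, 23 and 24, and 4.62, 2.70 and 3.53 CPM in mice 5, 7 and 8, again without overlap. Its log2 fold change was -0.80 ± 0.36, with an unadjusted p of 0.0600 and an adjusted p of 0.632 (edgeR). The exact permutation tests of *Il2rb* and *Klrd1* also gave the smallest possible p of 0.1.

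The other lectin-like receptors overlapped between genotypes. *Klrb1c*, which encodes the NK1.1 antigen of C57BL/6 mice, had 5.26, 13.6 and 11.4 CPM in mice 19, 23 and 24, and 9.46, 3.09 and 1.90 CPM in mice 5, 7 and 8. The Tet2-/- mice 7 and 8 were below all Tet2+/+ mice, while mouse 5 was above mouse 19, and the log2 fold change was -1.06 ± 0.65 with an adjusted p of 0.724 (edgeR). *Klre1*, a receptor of the same gene complex, had 2.03, 2.30 and 2.82 CPM in the Tet2+/+ mice and 2.40, 1.22 and 1.03 CPM in mice 5, 7 and 8. Here too mouse 5 lay within the Tet2+/+ range, and the log2 fold change was -0.60 ± 0.45 with an adjusted p of 0.780 (edgeR).

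The granule genes overlapped between genotypes. *Gzma*, the tryptase-like granzyme, had 1.14, 2.62 and 1.55 CPM in mice 19, 23 and 24, and 2.28, 0.386 and 0.217 CPM in mice 5, 7 and 8. Mouse 5 was the second highest of the 6, and mice 7 and 8 held only 6 and 4 reads of the gene. Its log2 fold change was -0.84 ± 0.87 (adjusted p = 0.847, edgeR), and it was -2.54 without mouse 5.

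*Gzmb*, the granzyme that activates caspases, had 6.16, 6.10 and 4.58 CPM in the Tet2+/+ mice 19, 23 and 24, and 8.25, 6.62 and 1.03 CPM in mice 5, 7 and 8. The Tet2-/- mice thus held the highest, the next and the lowest level, and the log2 fold change of -0.08 ± 0.67 (adjusted p = 0.987, edgeR) turned to 0.41 without mouse 8. *Prf1*, which encodes perforin, had 0.658, 1.71 and 1.69 CPM in mice 19, 23 and 24, and 1.49, 1.93 and 0.380 CPM in mice 5, 7 and 8. The Tet2-/- range enclosed the Tet2+/+ range, with a log2 fold change of -0.10 ± 0.68 (adjusted p = 0.984, edgeR) that was above 0 without mouse 8, 23 or 24.

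*Nkg7* was the only member with a higher mean in the Tet2-/- mice. It had 78.2, 48.5 and 49.0 CPM in mice 19, 23 and 24, and 103, 86.8 and 46.4 CPM in mice 5, 7 and 8. Mice 5 and 7 were above all Tet2+/+ mice and mouse 8 was below them all. The log2 fold change was 0.43 ± 0.33 with an adjusted p of 0.786 (edgeR). Without mouse 8 it was 0.70 and *Nkg7* had an unadjusted p below 0.05, as 4.13% of the genes tested without that mouse had on the higher side. *Nkg7* and *Gzmb* were then higher in both remaining Tet2-/- mice than in any Tet2+/+ mouse, as were 16.0% of the genes whose mean reached 1 CPM. *Eomes*, the T-box factor, had 1.08, 3.05 and 1.83 CPM in mice 19, 23 and 24, and 1.39, 2.19 and 1.25 CPM in mice 5, 7 and 8. Its highest and lowest levels were both in Tet2+/+ mice, and the log2 fold change was -0.31 ± 0.50 (adjusted p = 0.907, edgeR).

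**Figure D2:**
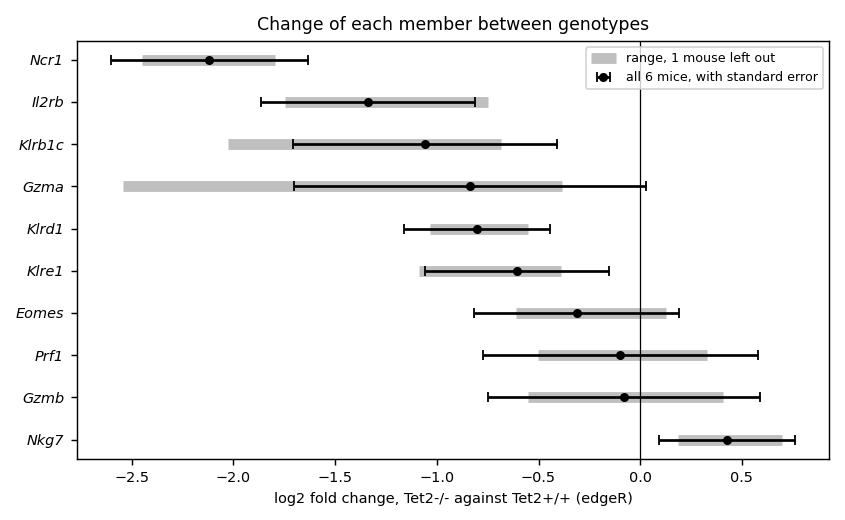
Log2 fold change of each gene in Tet2-/- against Tet2+/+ blasts, with points and black bars for the edgeR estimate and its standard error and grey bars for the range when each mouse was left out in turn. *Ncr1* stays between -2.45 and -1.79, while *Gzmb*, *Prf1* and *Eomes* cross 0.

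Counted over the members, edgeR called 0 of the 10 lower or higher at an adjusted p under 0.05, where it called 0.0451% of all tested genes lower and 0 genes higher. DESeq2 called 1 member lower, *Ncr1*, against 1.83% of the genes it adjusted. At an unadjusted p under 0.05, 2 members were called, *Ncr1* and *Il2rb*, both lower, against 8.11% of all tested genes in either direction and 5.12% lower. Without overlap between genotypes, 3 members were lower (*Ncr1*, *Il2rb* and *Klrd1*) and 0 higher, against 7.71% and 8.24% of those genes whose mean reached 1 CPM. The log2 fold change was below 0 for 9 of the 10 members, with a median of -0.70, while it was below 0 for 49.9% of all tested genes, with a median of 0.00.

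By role, all 5 receptor genes were below 0, with a median log2 fold change of -1.06. The 4 granule genes had a median of -0.09, with 3 below 0 and *Nkg7* above. Summed over the 5 receptor genes, the level was 39.6, 52.2 and 90.9 CPM in mice 19, 23 and 24, and 39.8, 23.8 and 13.9 CPM in mice 5, 7 and 8. Mouse 5 and mouse 19 were almost level in this sum, to which *Il2rb* gave the most reads. Summed over the granule genes, of which *Nkg7* made up most, the level was 56.8 to 86.1 CPM in the Tet2+/+ mice and 48.0 to 115 CPM in the Tet2-/- mice, so that the latter enclosed the former. Whether receptor and granule genes differed in their response was not tested. In bulk RNA of sorted cells, fewer cells of a type and less RNA per cell cannot be told apart.

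Single mice weighed on these counts. Mouse 8 had the lowest level of 8 members, all but *Klrd1*, lowest in mouse 7, and *Eomes*, lowest in mouse 19. Mouse 24 had the highest level of 4 members (*Ncr1*, *Il2rb*, *Klrd1* and *Klre1*), mouse 23 of 3 (*Klrb1c*, *Gzma* and *Eomes*), mouse 5 of *Gzmb* and *Nkg7*, and mouse 7 of *Prf1*. Without mouse 5, which was the nearest of the Tet2-/- mice to the Tet2+/+ range in several receptors, 5 members had an unadjusted p under 0.05 and were lower (*Ncr1*, *Il2rb*, *Klrb1c*, *Klrd1* and *Gzma*), against 5.55% of the genes tested without it. With 3 against 2 mice, 6 members were then lower without overlap, against 12.8% of the genes whose mean reached 1 CPM. Without mouse 7, 8 or 24, only *Ncr1* was lower at an unadjusted p under 0.05. *Ncr1* was in that count whichever mouse was left out.

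Genes outside the group were described from 5 further lists of the same biology. Of 31 tested NK surface receptors and adapters, 23 had a log2 fold change below 0 and 8 above, with a median of -0.63. At an unadjusted p under 0.05, 5 were lower (*Klrc1*, *Klra1*, *Cd226*, *Cd96* and *Txk*) and 0 higher, where 5.12% of all tested genes were lower. Without overlap, 5 genes were lower and 1 was higher among the 23 whose mean reached 1 CPM, where the shares of all such genes were 7.71% and 8.24%. The counts of the lists that follow stand against these same shares, and against 8.11% of all tested genes for an unadjusted p under 0.05 in either direction. The most abundant by CPM were adapters and kinases that myeloid cells also use. *Tyrobp*, the DAP12 adapter, had 494 to 676 CPM in Tet2+/+ and 599 to 722 CPM in Tet2-/- mice. *Fcer1g*, the Fc receptor γ chain, had 298 to 344 and 349 to 463 CPM, and was the gene of this list that was higher without overlap. *Syk*, the kinase that both adapters recruit, had 305 to 356 and 334 to 475 CPM.

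Most of the Klr family was low in the sorted cells and lay on the same side of 0. Among the members and this list, 17 Klr genes were tested and 16 had a log2 fold change below 0, where 49.9% of all tested genes did. The median was -0.92. At an unadjusted p under 0.05 (edgeR), 2 were lower, *Klra1* and *Klrc1*, where 5.12% of all tested genes were. Summed over the 18 matched Klr genes, the level was 114 to 206 CPM in Tet2+/+ and 67.1 to 185 CPM in Tet2-/- mice, with overlap. Sequence shared among Klr genes outside the members was not tested. *Klrc1*, which encodes the NKG2A partner of CD94, had 3.41, 4.76 and 5.91 CPM in mice 19, 23 and 24, and 2.31, 1.86 and 1.79 CPM in mice 5, 7 and 8, without overlap (log2 fold change -1.23 ± 0.36, adjusted p = 0.496, edgeR). *Klrb1f*, a lectin-like gene of the same complex, had 73.1, 130 and 73.9 CPM in the Tet2+/+ mice and 137, 41.8 and 47.9 CPM in mice 5, 7 and 8, and the genotypes overlapped. Per length its level was 36.8 to 130 TPM, while that of *Klrk1*, which encodes the activating receptor NKG2D, was 3.23 to 14.5 TPM.

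Of 14 tested genes of the IL-2, IL-12, IL-15, IL-18 and IL-21 receptors and their kinases and STATs, 6 were below 0 and 8 above, with a median of 0.11. *Il12rb2*, a chain of the IL-12 receptor, was the sole gene with an unadjusted p under 0.05, and it was lower without overlap, at 4.36 to 9.51 and 1.80 to 4.23 CPM. The most abundant by CPM were *Jak1* (243 to 271 CPM in Tet2+/+ and 251 to 353 CPM in Tet2-/- mice), *Il18rap* (85.5 to 286 and 95.8 to 374 CPM) and *Stat5b* (133 to 140.01 and 135 to 177 CPM), and all 3 overlapped between genotypes. The partner of *Il2rb*, the common γ chain gene *Il2rg*, had 42.6 to 57.3 CPM in Tet2+/+ and 46.0 to 82.2 CPM in Tet2-/- mice.

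Of 12 tested transcription factors of NK development, 9 were below 0 and 3 above, with a median of -0.50. At an unadjusted p under 0.05, *Id2*, *Zfp683* and *Gata3* were lower and *Nfil3* was higher, which is 4 of 12 where 8.11% of all tested genes were called. *Gata3* was near the floor, with a mean of 0.826 CPM and 7 to 22 reads per library. The most abundant was *Id2*, an inhibitor of E proteins that innate lymphocytes need, with 190, 273 and 265 CPM in mice 19, 23 and 24 and 126, 199 and 126 CPM in mice 5, 7 and 8. Mouse 7 was within the Tet2+/+ range, and the log2 fold change was -0.69 ± 0.25 (adjusted p = 0.591, edgeR). *Zeb2* had 111 to 303 and 48.8 to 326 CPM, and *Ets1* had 47.2 to 153 and 48.8 to 178 CPM, both with overlap. *Nfil3*, a factor that starts the NK lineage, was higher without overlap, at 17.8 to 30.2 CPM in Tet2+/+ and 32.0 to 56.7 CPM in Tet2-/- mice (log2 fold change 0.98 ± 0.30, adjusted p = 0.516, edgeR). Among the 10 factors whose mean reached 1 CPM, 2 were lower and 1 was higher without overlap (7.71% and 8.24% of all such genes). *Tbx21*, which encodes T-bet, had 1.49 to 2.82 CPM in Tet2+/+ and 0.271 to 1.36 CPM in Tet2-/- mice, and *Ikzf3*, which encodes Aiolos, had 6.32 to 7.18 and 2.22 to 4.87 CPM.

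Of 18 listed genes of granule enzymes and granule release, 13 were tested, 4 of them below 0 and 9 above, with a median of 0.30. *Gzmd*, *Gzme*, *Gzmf*, *Gzmg* and *Gzmn*, a cluster of granzymes beside *Gzmb*, had 0 reads in every mouse. *Ctsw*, the cathepsin of cytotoxic lymphocytes, was lower at an unadjusted p under 0.05, with 6.58 to 10.3 CPM in Tet2+/+ and 3.201 to 6.23 CPM in Tet2-/- mice. The most abundant by CPM were *Lamp1* (302 to 472 and 318 to 693 CPM), *Lyst* (216 to 444 and 305 to 642 CPM) and *Srgn* (232 to 440.1 and 344 to 478 CPM), lysosome and proteoglycan genes that myeloid granules share.

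Of 12 tested genes of NK cytokines, death ligands and trafficking, 10 were below 0 and 2 above, with a median of -0.53. The chemokine genes *Ccl3* and *Ccl4* and the chymase gene *Cma1*, which mast cells also use and which stood at 1.06 CPM in mouse 24 and at most 0.0598 CPM in the others, were lower at an unadjusted p under 0.05. *Ccl3* had 23.7 to 46.4 CPM in Tet2+/+ and 11.9 to 24.3 CPM in Tet2-/- mice. The 3 genes lower without overlap were *Ccl4*, at 4.72 to 11.2 and 2.94 to 4.05 CPM, the death ligand gene *Tnfsf10*, at 6.10 to 9.08 and 3.09 to 4.97 CPM, and the chemokine gene *Xcl1*, at 1.97 to 2.89 and 0.705 to 1.80 CPM. *Ccl5* had 14.5 to 18.7 and 5.32 to 21.1 CPM. *Cx3cr1*, a receptor of mature NK cells and of monocytes, ranged from 12.5 to 74.7 CPM in Tet2+/+ and from 2.44 to 202 CPM in Tet2-/- mice, and was the most abundant of the list. In these 5 lists edgeR called 0 genes at an adjusted p under 0.05, and DESeq2 also called 0.

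**Figure D3:**
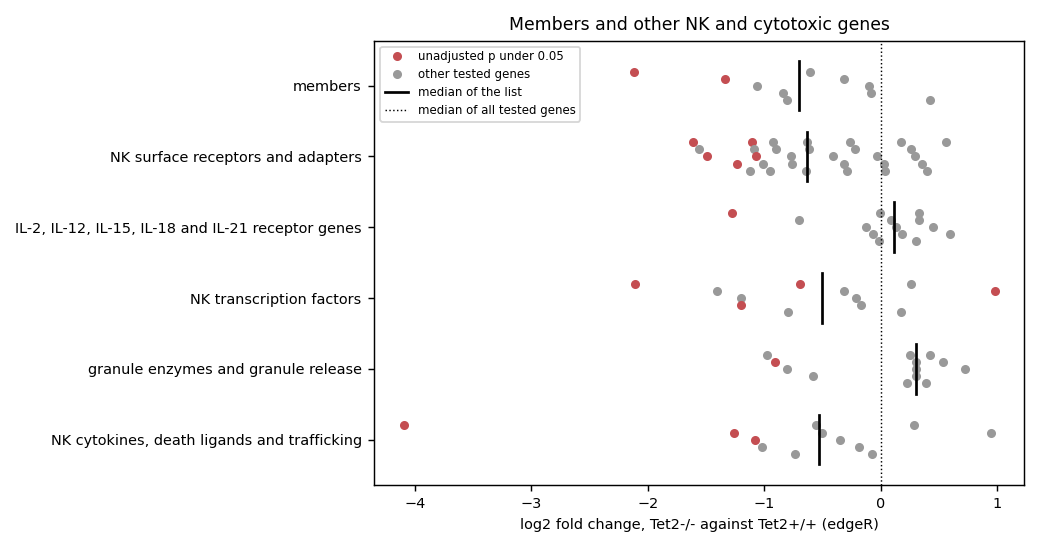
Log2 fold changes of the members and of the tested genes of the 5 lists, with red points for an unadjusted p under 0.05, grey points for the other genes and black bars for the medians. The dotted line is the median of all tested genes at 0.00, and the medians run from -0.70 for the members to 0.30 for granule enzymes and granule release.

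Marker lists of other cell types of the marrow were summed in each mouse, including T and B cells and plasmacytoid dendritic cells, which in mice carry CD3 or B220 and which the gate was set to remove. The 12 NK cell markers, 8 of them members, had 60.6, 98.2 and 123 CPM in mice 19, 23 and 24, and 65.4, 38.4 and 26.4 CPM in mice 5, 7 and 8. All 12 were below 0, and the 4 that are not members (*Klrk1*, *Klra8*, *Tbx21* and *Txk*) had log2 fold changes from -1.20 to -0.63. The list was written with *Il2rb*, *Gzma* and *Prf1*, which T cells also use, and without the members *Nkg7* and *Gzmb*, whose log2 fold changes were 0.43 and -0.08, so that its count depends in part on which members it holds. Without *Il2rb* the sums were 38.0 to 70.8 CPM in Tet2+/+ and 19.4 to 43.5 CPM in Tet2-/- mice. The NK markers were thus present in every library, and mice 19 and 5 overlapped in both sums.

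Of 12 tested T cell genes 8 were below 0 and 4 above, with a summed level of 51.3 to 107 CPM in Tet2+/+ and 27.8 to 64.6 CPM in Tet2-/- mice, and *Lat* was lower at an unadjusted p under 0.05. The upper end of 107 CPM was mouse 19, in which *Trbc1*, a constant segment of the T cell receptor, alone had 51.1 CPM. In mice 23 and 24 *Trbc1* had 4.44 and 6.26 CPM and the list 59.4 and 51.3 CPM. No T cell marker was at 0 in all libraries, although the gate excluded CD3 on the surface. Basophil and mast cell markers had 438 to 523 CPM in Tet2+/+ and 180 to 362 CPM in Tet2-/- mice, without overlap, and 6 of 8 tested were below 0. This separation rested on *Cpa3*, the mast cell carboxypeptidase, with 263 to 362 and 16.8 to 87.7 CPM. Without it the sums were 75.7 to 259 and 162 to 315 CPM and overlapped, with the higher mean in the Tet2-/- mice. *Cpa3*, *Cd200r3* and *Gata2* of that list were lower by DESeq2 at an adjusted p under 0.05, *Hdc*, the histidine decarboxylase, was at 37.7 to 206 and 139 to 300 CPM with a log2 fold change of 0.996, and *Tpsb2* had 0 reads. Markers of type 2 innate lymphoid cells were at 11.6 to 20.99 and 7.97 to 20.8 CPM, with 4 of 5 tested below 0 and *Il13* and *Areg* at 0 reads. B cell markers were at 32.5 to 93.5 and 26.0 to 71.6 CPM, with 7 of 8 below 0. Plasmacytoid dendritic cell markers were at 56.8 to 81.8 and 67.9 to 78.7 CPM, with 5 of 7 below 0 and *Siglech* lower by DESeq2. Myeloid blast markers were at 7163 to 8977 and 6559 to 9258 CPM, with 4 of 8 below 0, and 2 of them were lower without overlap. These were *Mpo*, at 4108 to 4526 and 2661 to 3393 CPM, and the progenitor marker *Cd34*, at 170.3 to 309.9 and 32.1 to 131 CPM with an unadjusted p of 0.0251 and an adjusted p of 0.582 (edgeR). The largest fold change above 0 in the list was that of *Elane*, the neutrophil elastase, at 152 to 973 and 913 to 1333 CPM (log2 fold change 1.19 ± 0.64, adjusted p = 0.676, edgeR). Mouse 8 had the lowest sum of the NK cell, T cell, type 2 innate lymphoid and myeloid lists, and of the basophil list with *Cpa3* in it. A list of 6 common housekeeping genes had 11937 to 13294 CPM in Tet2+/+ and 14339 to 16095 CPM in Tet2-/- mice, higher without overlap. In it *Gapdh* and *Actb* were higher without overlap, where 8.24% of the genes whose mean reached 1 CPM were. *Gapdh* was also higher by DESeq2 (adjusted p = 0.00191). The part of these cell types in the levels of the members was not tested.

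**Figure D4:**
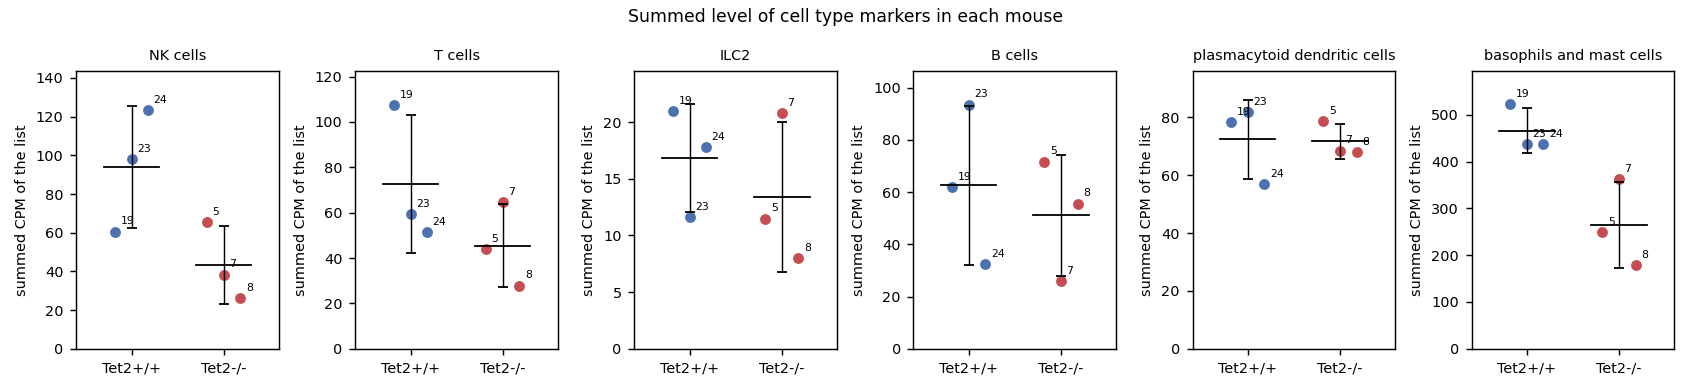
Summed CPM of 6 cell type marker lists in each mouse, on linear axes from 0, with Tet2+/+ mice in blue, Tet2-/- mice in red, lines for group means and bars for 1 SD over 3 mice. The basophil and mast cell list separates the genotypes through *Cpa3*, and the NK and T cell lists overlap, with mouse 8 at the bottom of both.

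The transcript models behind the gene counts differed between members. *Gzmb* has 1 annotated transcript, and the reads of *Il2rb*, *Gzma*, *Prf1*, *Klrb1c* and *Ncr1* were assigned to coding transcripts. Those of *Ncr1* went wholly to Ncr1-201 in mice 24, 7 and 8 and wholly to Ncr1-202 in mice 23 and 5, with 49.3% and 50.7% in mouse 19, so that the split between these similar models is not a measurement. For *Klre1* the coding transcript took 17.8% to 80.5% of the reads, and a transcript annotated for nonsense-mediated decay took 13.01% to 65.4%. The highest coding share was in mouse 8, where the gene had 19 reads.

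For *Nkg7*, with between 696 and 3258 reads, the split rests on more data. The model with a retained intron took 32.3% to 41.8% of its reads in every mouse, and the coding transcript Nkg7-201 took 22.4% to 36.3% in 5 mice and 7.10% in mouse 23. The coding share as a whole was 67.7%, 58.2% and 64.9% in the Tet2+/+ mice and 66.4%, 63.8% and 66.7% in the Tet2-/- mice, so that the genotypes overlapped. None of the members shared at least 95% identity over at least 50% of a transcript with another gene. The closest was *Klrb1c*, 92.2% identical to *Klrb1a*. The library kit does not keep strand, and *Klrb1c* overlaps Gm44511 and *Eomes* overlaps Gm33460, whose reads cannot be told apart from theirs on shared bases.

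**Figure D5:**
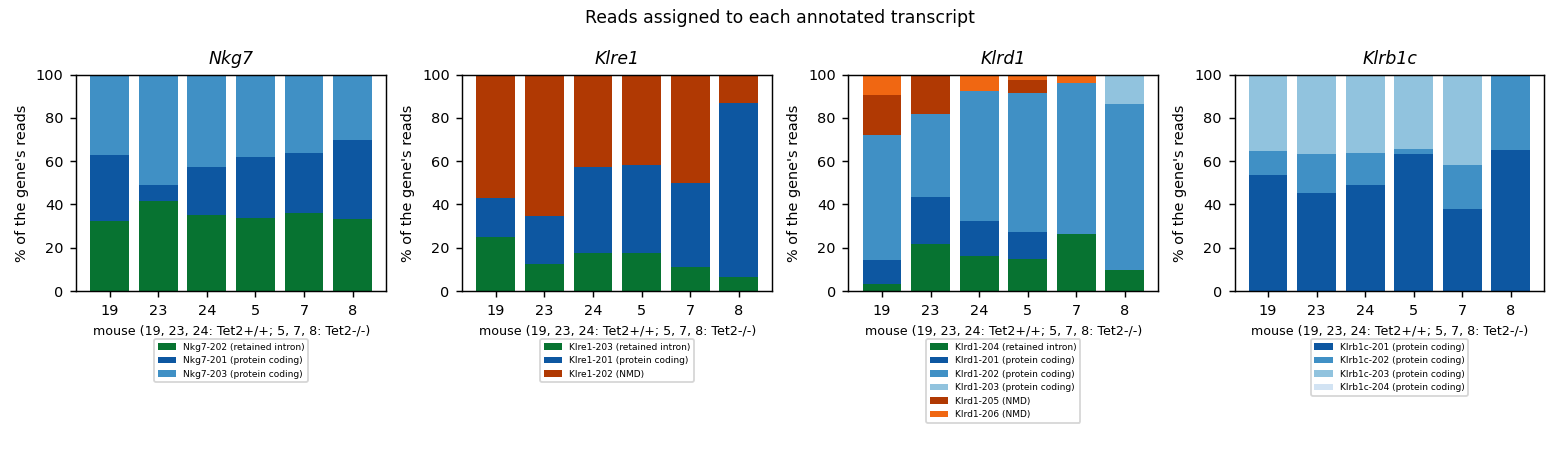
Share of a gene's reads, in percent, assigned to each annotated transcript of *Nkg7*, *Klre1*, *Klrd1* and *Klrb1c* in each mouse, stacked to 100%. Blue shades are coding transcripts, green is a retained intron and orange shades are nonsense-mediated decay (NMD); the *Nkg7* retained-intron share stays between 32.3% and 41.8%, and the *Klre1* shares vary most.

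The pattern of the members over the 6 mice was described by the mean of their centred log2(CPM + 1) profiles. It stood at 0.05, 0.36 and 0.44 in mice 19, 23 and 24 and at 0.22, -0.21 and -0.86 in mice 5, 7 and 8, so that its largest step was the low level of mouse 8 and not a step between genotypes. *Klre1* followed this profile most closely, with a root mean square difference of 0.176, and *Nkg7* least, with 0.590. The 5 genes outside the group with the smallest difference, of 13829 genes compared over 6 mice, were *Kbtbd11* (0.0948), *Zfp507* (0.0985), *Nck2* (0.117), *Gimap6* (0.126) and *Zbtb10* (0.131). *Zfp507*, a zinc finger gene, had 18.5, 24.03 and 27.0 CPM in mice 19, 23 and 24, and 18.3, 15.6 and 8.90 CPM in mice 5, 7 and 8. With a pseudocount of 0.1 instead of 1, only 2 of these 5 genes remained among the nearest 5.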

How the data were processed

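RNA-seq of sorted AML blasts from 3 Cebpa-/p30 Tet2+/+ and 3 Cebpa-/p30 Tet2-/- mice was used, with 1 library per mouse. The study made TruSeq libraries, read them on a NextSeq 500 and ran bcbio with Ensembl transcripts, and the submitters' processing notes name Salmon 0.12.0 and GRCm38.p6. Each deposited table gives an estimated count per transcript, not normalized between libraries. It also holds the TPM that the authors obtained from Salmon, scaled by effective length and to an equal total in each library.

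Estimated counts were summed to GENCODE M21 genes and rounded. Reads of transcripts without a matched gene (0.0307% to 0.0416%) were left out. Genes with library-size-normalized counts summing to at least 10 were tested in edgeR 4.0.16 (R 4.3.3) by its quasi-likelihood test with TMM factors (0.867 to 1.11), without covariates, and p-values were adjusted by the Benjamini-Hochberg method over all 22170 genes with a threshold of 0.05. Standard errors were obtained from the log2 fold change and the root of its F value. The exact permutation test was two-sided. The edgeR fit was also run on counts simulated with known changes. It gave most changed genes the right direction, but called only a minority of them at the threshold and also called a few unchanged genes. A gene that was not called is thus not shown to be unchanged. DESeq2 1.42.0, length-scaled counts, other filters and scalings, thinning, protein-coding genes alone and leaving out each mouse were alternatives. Python 3.11.15, pandas 2.3.3, matplotlib 3.10.9 and BLAST+ 2.17.0 were also used.

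The members, lists and tests were chosen with earlier results of these data known. Named were all members, the 3 most abundant tested genes of each of the 5 lists, any listed or marker gene past the threshold, markers that define a cell type, the 5 genes most like the members and *Tet2*. *Klrb1f*, *Klrc1*, *Il2rg*, *Nfil3*, *Ctsw*, *Klrk1*, *Klra8*, *Tbx21*, *Trbc1*, *Cpa3*, *Hdc*, *Elane*, *Cd34* and genes given for an unadjusted p, for an absence of overlap or for 0 reads were named after seeing their values. The labels give no batch.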

Additional observations from a re-analysis of the deposited data

How the results depend on the processing

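Of the 10 members, 7 kept the sign of their log2 fold change under all 15 alternatives. The exceptions, with each mouse left out in turn, were *Gzmb* (-0.55 to 0.41, above 0 without mouse 8), *Prf1* (-0.50 to 0.33 without mouse 8, and 0.09 without mouse 23 or 24) and *Eomes* (-0.61 to 0.12, above 0 without mouse 23). The count of members lower at an adjusted p under 0.05 was 0 with edgeR and 1 (*Ncr1*) with DESeq2 on the same counts and 1 with DESeq2 on length-scaled counts (adjusted p = 0.00512 by DESeq2 with Benjamini-Hochberg adjustment). The cause was not tested. With each mouse left out in turn, between 1 and 5 members were lower at an unadjusted p under 0.05 (3.58% to 5.55% of all tested genes), between 0 and 1 higher (1.16% to 4.71%), and between 3 and 6 lower without overlap (9.82% to 14.5% of genes whose mean reached 1 CPM). The counts of called genes in the 5 lists were 0 under every alternative. With scaling by library size only, the median over all genes shifted by -0.17 (log2). *Nkg7* made up 57.9% of the members' summed level in CPM and 81.7% in TPM. No paired analysis was made, since the labels give no pairing of mice between the 2 genotypes. Low read counts limit *Gzma*, *Prf1*, *Eomes*, *Klre1* and *Ncr1* most.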
